A study of Drosophila melanogaster with 6 samples.

Results

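The genes described here are 10 components of the Notch pathway, namely the receptor N, its ligands Dl and Ser, the glycosyltransferase fng, the nuclear factors Su(H), H and mam, and the target genes ct, E(spl)mbeta-HLH and E(spl)m7-HLH. They were listed by symbol as genes of the pathway, at a time when earlier results of these data were known, and were looked up by identifier among the 13955 genes counted in each library. All 10 were found, Dl under its current symbol Delta, and all 10 passed the filter on low counts, which left 8361 genes. RNA came from wing discs, the larval epithelia that form the adult wing, of female wandering L3 larvae kept in a water bath at 28 °C, in 3 control and 3 CncC overexpression libraries. CncC, encoded by cnc, is the fly Nrf2. By the methods of the study, overexpressing larvae carried hs-FLP, the driver tub>>>Gal4 with UAS-CD8-GFP, the transgene UAS-nrf2 and tub-Gal80ts, a temperature-sensitive repressor of Gal4, and control larvae carried the same transgenes except UAS-nrf2. The tub promoter is active throughout the disc, and by the same methods the cassette between it and Gal4 had already been removed in the stock. The labels of the control samples instead give a wild type genotype, with yw in the title, so an effect of strain or driver cannot be told apart from that of CncC if the labels are right. Nothing in the labels says whether the 3 libraries of a group came from separate cultures of larvae, so that the p-values measure the spread between these libraries.

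Notch is a cell surface receptor that is cleaved when a ligand on a neighbouring cell pulls on it, after which its intracellular domain enters the nucleus and joins the DNA-binding protein Su(H) and the coactivator Mastermind, the product of mam. Without that domain, Su(H) is held in a repressing complex by Hairless, the product of H. In the wing disc Notch signals along the border between dorsal and ventral cells, which becomes the wing margin, and it restricts the choice of sensory organ precursors and the width of veins.

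The total count lay between 16464410 and 16682764 per library. Counts of cnc ranged from 1777 to 1983 in the control libraries and from 84044 to 172120 in the overexpressing ones, in the direction of the labels. The libraries also differed by exon length. For each library, log2 levels less the gene's mean over all libraries were fitted against log2 exon length, over 8159 genes. The slope was -0.04, -0.15 and -0.12 for control replicates 1 to 3. For CncC overexpression replicates 1 to 3 it was 0.0054, 0.15 and 0.16, so that longer genes read higher in the overexpressing libraries than in control. Such slopes give differences between libraries, and not the length bias of a single library. This matters here because the exons of the members run from 978 bases for E(spl)mbeta-HLH to 12443 for ct. The comparisons of single genes were therefore also computed with the length trend removed. Every overexpressing library had a higher slope than every control library, so the trend and an effect of genotype cannot be told apart. Removing the trend may also remove part of such an effect. A gene was called where the p-value of edgeR's quasi-likelihood test, adjusted by Benjamini and Hochberg's method over all genes and given below as edgeR adjusted p, was under 0.05. SE stands for the standard error of a log2 fold change. By this rule 30.9% of the genes tested rose and 31.6% fell in CncC overexpression, and with the length trend removed 29.3% and 32.7% did. Every CncC overexpression library lay above every control library for 33.6% of the genes tested and below every one for 34.9%.

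Of the 10 Notch pathway genes, 3 were called higher (N, Ser and H), 1 was called lower (mam), and 6 did not pass the test. Neither count stands above the share of all genes called in that direction. By groups that did not overlap, 3 lay higher (N, Su(H) and H) and 1 lower (mam), beside 33.6% and 34.9% of all genes tested. The median log2 fold change of the 10 was 0.15, beside -0.01 for all genes tested. With the length trend removed, no member was called higher and 2 were called lower, mam and ct. The decrease of mam was the only call that held under each of the 16 other fits, including those with another scaling, test or filter, with a replicate block, and without each library. At 0.67 times the control level, mam did not reach a fold limit of 0.6. In bulk discs, fewer cells of a type and less RNA per cell cannot be told apart for any of these genes.

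**Figure D1:**
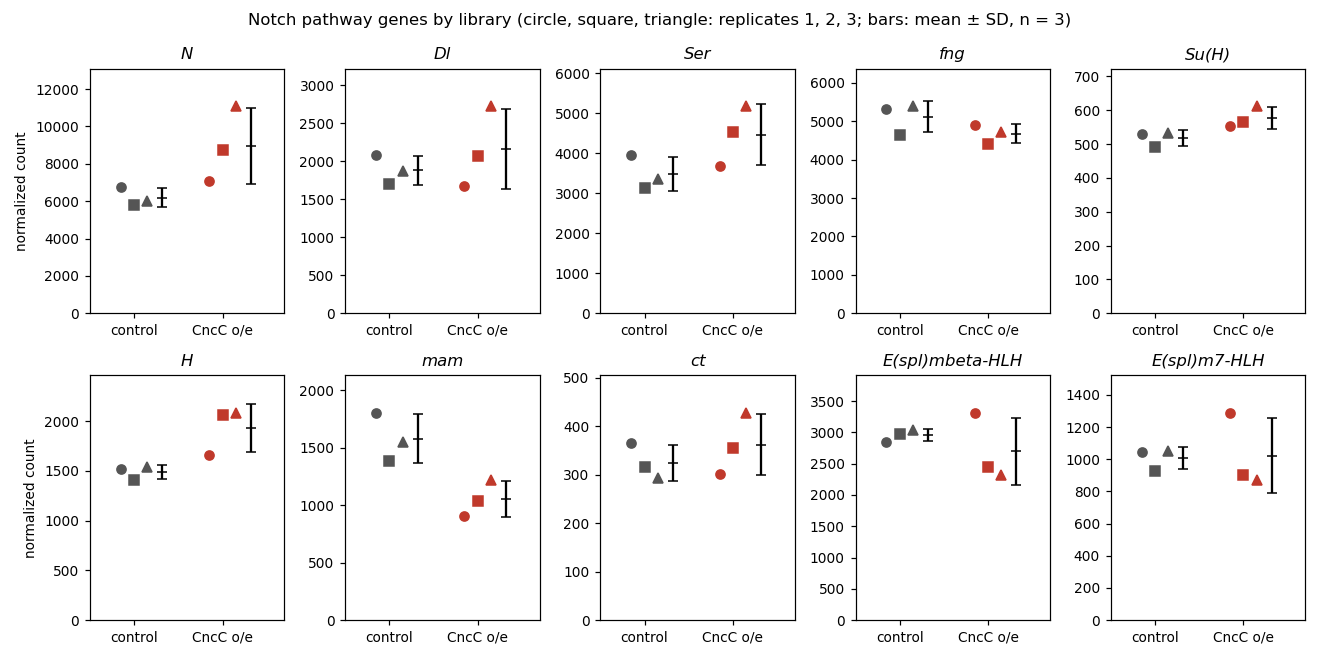
Normalized counts of the 10 Notch pathway genes on the y axis of each panel, with control libraries in grey and CncC overexpression libraries in red; circles, squares and triangles are replicates 1, 2 and 3, and bars give the mean ± SD (n = 3). For mam the overexpressing libraries, at 910.0 to 1218, lie below the control libraries, at 1380.0 to 1804. For N, Su(H) and H they lie above, and for Dl, Ser, fng, ct and both E(spl) genes the groups overlap.

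N (FBgn0004647, chromosome X from 3134870 to 3172221, plus strand, on the assembly BDGP6.54 used for all positions here) encodes the Notch receptor itself. Its counts, scaled for library size, were 6747, 5782 and 5988 for control replicates 1 to 3, against 7063, 8737 and 11096 in CncC overexpression replicates 1 to 3. The groups did not overlap, but overexpression replicate 1 lay close to control replicate 1. The mean normalized count rose from 6172 ± 508 to 8966 ± 2026 (± SD of 3 libraries), a log2 fold change of 0.54 (SE 0.15, edgeR adjusted p = 0.0119). The 6 libraries stood in the same order by N, by their slope with exon length and by their cnc count. Once the length trend was removed, the log2 fold change of N was 0.09 (SE 0.09, edgeR adjusted p = 0.445). Without CncC overexpression replicate 3 it was 0.37, and without replicate 1 it was 0.69.

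fng (FBgn0011591, chromosome 3L from 20925891 to 20949512, minus strand) encodes Fringe, a Golgi enzyme that adds a sugar to Notch in dorsal cells and makes the receptor respond to Delta rather than Serrate. It had 5314, 4649 and 5399 normalized counts in the control libraries and 4909, 4409 and 4715 in the overexpressing libraries. The groups overlapped through control replicate 2. The log2 fold change of fng was -0.13, with a 95% confidence interval from -0.35 to 0.08 and an edgeR adjusted p of 0.258. After removal of the length trend, it was -0.09. The annotated exons of fng share 22 bases with those of CG10589 on the opposite strand, which had between 92 and 197 counts.

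Delta and Serrate are the membrane-bound ligands, and both are expressed in the disc on the sides of the dorsoventral border and in other domains. Dl (FBgn0000463, chromosome 3R from 19302731 to 19326217, minus strand) had 2074, 1696 and 1874 normalized counts in control and 1679, 2068 and 2726 in CncC overexpression. Overexpression replicate 1 was the lowest of all libraries for Dl and replicate 3 the highest. The log2 fold change of Dl was 0.20 (95% confidence interval from -0.16 to 0.55, edgeR adjusted p = 0.296). Without CncC overexpression replicate 1 it was 0.35 and passed the threshold (edgeR adjusted p = 0.0378), without replicate 3 it was 0.01, and with the length trend removed it was -0.07.

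Ser (FBgn0004197, chromosome 3R from 27172090 to 27194267, minus strand) had 3957, 3133 and 3360 normalized counts in control and 3682, 4535 and 5184 in CncC overexpression. The groups overlapped, since control replicate 1 lay above overexpression replicate 1. Ser was called higher, with a log2 fold change of 0.36 (SE 0.14, edgeR adjusted p = 0.0427). This call is near the threshold. It was lost without control replicate 2 (edgeR adjusted p = 0.151), without control replicate 3 (0.13) and without CncC overexpression replicate 2 (0.0969) or 3 (0.144). It was also lost with upper-quartile scaling (0.0804), with a replicate block (0.0711) and with the length trend removed, where the log2 fold change was 0.06 (edgeR adjusted p = 0.549).

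Among the nuclear factors, mam (FBgn0002643, chromosome 2R from 13991203 to 14060356, plus strand) encodes the coactivator without which the complex of Notch and Su(H) cannot switch on its targets. It had 1804, 1380 and 1548 normalized counts in control and 910.0, 1034 and 1218 in CncC overexpression. Every overexpressing library lay below every control library. The mean normalized count fell from 1577 ± 213 to 1054 ± 155 (± SD of 3 libraries), a log2 fold change of -0.58 (SE 0.13, edgeR adjusted p = 0.00275), or 0.67 times the control level with a 95% confidence interval from 0.55 to 0.81. The exons of mam sum to 8869 bases, so the length trend ran against this decrease. With the trend removed, the log2 fold change was -0.99 (SE 0.07, edgeR adjusted p = 9.88e-06). Over the fits that left out each library in turn, the log2 fold change of mam lay between -0.68 and -0.48. Introns of mam hold CG18371 on the same strand, which had at most 3 counts in any library, and mir-4978 on the opposite strand, which was not analysed here.

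Su(H) (FBgn0004837, chromosome 2L from 15039488 to 15043334, plus strand), the DNA-binding factor of the pathway, had 529, 492 and 534 normalized counts in control and 554, 564 and 613 in CncC overexpression. The groups did not overlap, yet the difference did not pass the test, with a log2 fold change of 0.15 (95% confidence interval from -0.05 to 0.36, edgeR adjusted p = 0.16). H (FBgn0001169, chromosome 3R from 20621938 to 20628915, plus strand), the corepressor that binds Su(H), had 1516, 1412 and 1539 normalized counts in control and 1656, 2062 and 2084 in CncC overexpression. H was higher in every overexpressing library and was called higher, with a log2 fold change of 0.38 (SE 0.10, edgeR adjusted p = 0.00871). The increase of H did not pass once the length trend was removed (log2 fold change 0.07, edgeR adjusted p = 0.338).

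The 3 target genes gave no call in the main comparison. E(spl)mbeta-HLH (FBgn0002733, chromosome 3R from 26005046 to 26006023, minus strand) and E(spl)m7-HLH (FBgn0002633, chromosome 3R from 26037038 to 26038019, plus strand) encode basic helix-loop-helix repressors of the Enhancer of split complex, which lie under direct control of Su(H). E(spl)mbeta-HLH had 2848, 2967 and 3041 normalized counts in control and 3313, 2455 and 2323 in CncC overexpression. E(spl)m7-HLH had 1044, 928 and 1053 normalized counts in control and 1288, 902 and 872 in CncC overexpression. In both genes overexpression replicate 1 was the highest of the 6 libraries and replicates 2 and 3 were the lowest, while the control libraries lay between them. The SD of E(spl)mbeta-HLH was 3.31% of the mean in control and 19.9% in CncC overexpression, and that of E(spl)m7-HLH was 6.94% and 22.7%. The log2 fold change was -0.13 for E(spl)mbeta-HLH (95% confidence interval from -0.42 to 0.16, edgeR adjusted p = 0.398) and 0.02 for E(spl)m7-HLH (95% confidence interval from -0.30 to 0.33, edgeR adjusted p = 0.919). Overexpression replicate 1 also had the lowest cnc count and the lowest slope with exon length of its group, and the part of either in these values was not tested. Without that library, the log2 fold change of E(spl)mbeta-HLH was -0.30 and passed the threshold (edgeR adjusted p = 0.0115), and that of E(spl)m7-HLH was -0.18 (edgeR adjusted p = 0.115). In the fit without the length trend, they were 0.12 and 0.26, and did not pass.

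ct (FBgn0004198, chromosome X from 7608428 to 7678859, plus strand) encodes the homeodomain protein Cut, which Notch switches on in the cells of the wing margin and which is also active in sensory organs and in some muscle precursors. It had 366, 315 and 293 normalized counts in control and 302, 355 and 428 in CncC overexpression, and the groups overlapped. The log2 fold change of ct was 0.16 (95% confidence interval from -0.16 to 0.47, edgeR adjusted p = 0.362). ct has the longest exons of the members, and with the length trend removed its log2 fold change turned to -0.34 (SE 0.09, edgeR adjusted p = 0.0111). The direction of ct therefore depended on whether the trend was removed.

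**Figure D2:**
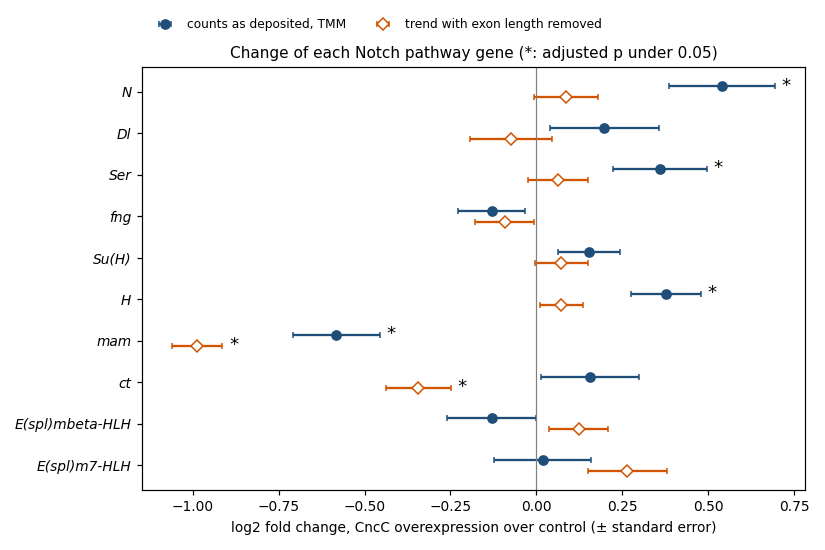
Log2 fold change of CncC overexpression over control on the x axis for each of the 10 genes, with bars of 1 standard error; filled circles are from the counts as deposited and open diamonds from the fit with the exon length trend removed, and asterisks mark an adjusted p under 0.05. N, Ser and H move from 0.54, 0.36 and 0.38 to 0.09, 0.06 and 0.07 between the fits, mam from -0.58 to -0.99 and ct from 0.16 to -0.34.

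**Figure D3:**
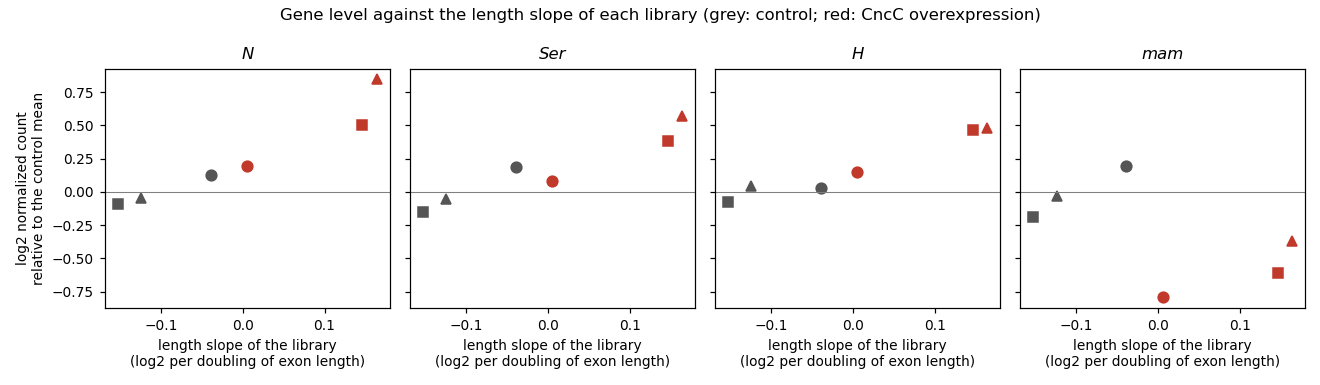
Level of N, Ser, H and mam in each library, as log2 of the normalized count relative to the control mean on the y axis, against the slope with exon length of that library's levels, taken relative to each gene's mean over all libraries, on the x axis (grey, control; red, CncC overexpression; circles, squares and triangles, replicates 1 to 3). Overexpression replicate 1, with a slope of 0.0054, sits nearest the control libraries for N, Ser and H, whereas mam is lower in it than in any other library.

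Per kilobase of exon, the members spanned a wide range of levels in control. E(spl)mbeta-HLH had 3019 ± 100.1 normalized counts per kilobase (SD, n = 3), fng 2614 ± 209.8 and E(spl)m7-HLH 1027 ± 71.3. The receptor and its ligands followed, with 608 ± 50.1 normalized counts per kilobase for N, 597 ± 73.0 for Ser and 356 ± 35.8 for Dl. H had 248 ± 11.3 normalized counts per kilobase, mam 178 ± 24.1, Su(H) 176 ± 7.77 and ct 26.1 ± 3.01. N and Ser did not differ beyond their spread in control, nor did mam and Su(H), whereas all other neighbours in this order did not overlap. In CncC overexpression the order was kept except that mam, at 119 ± 17.5 normalized counts per kilobase, lay below Su(H), at 196 ± 10.7, with no overlap. There E(spl)mbeta-HLH overlapped with fng, E(spl)m7-HLH with N, N with Ser, and Dl with H. Lengths are those of all annotated exons of a gene together, so that the level of a gene whose long isoforms are not used in the disc is understated.

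The ratio of 2 genes within a library does not depend on scaling, and 4 such ratios were compared by an exact two-sided permutation test, which cannot give a p below 0.1 for 3 against 3 libraries. The count of mam was 3.41, 2.80 and 2.90 times that of Su(H) for control replicates 1 to 3, against 1.64, 1.83 and 1.99 times in CncC overexpression replicates 1 to 3. On the log2 scale this ratio was 0.74 lower in overexpression (mean 1.60 ± 0.15 in control and 0.86 ± 0.14 in overexpression, SD, n = 3; exact p = 0.1, or 0.133 adjusted over the 4 ratios), with no overlap. The count of H was between 2.86 and 2.88 times that of Su(H) in the control libraries and 2.99, 3.65 and 3.40 times in the overexpressing libraries (exact p = 0.1, or 0.133 adjusted). The ratio of E(spl)m7-HLH to E(spl)mbeta-HLH was 0.37, 0.31 and 0.35 in control and 0.39, 0.37 and 0.38 in overexpression (exact p = 0.1, or 0.133 adjusted). The ratio of Dl to Ser overlapped between the groups, with 0.52, 0.54 and 0.56 in control and 0.46, 0.46 and 0.53 in overexpression (exact p = 0.2, also after adjustment). Genes of unlike length are joined in the ratios of mam (8869 bases of exon) and of H (6004) to Su(H) (2950), and the length trend was not removed from those.

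Other genes of the pathway were taken from lists by function. Among 9 genes of receptor maturation and cleavage, 7 were tested, of which 2 rose and 4 fell, with a median log2 fold change of -0.34 beside -0.01 for all genes tested. The counts of this and the following lists stand beside 30.9% of all genes tested that were called higher and 31.6% lower, and 2 of 7 higher is near that share. Those that fell were pen-2 (log2 fold change -0.81, SE 0.14, edgeR adjusted p = 7.21e-04) and aph-1 (-0.38), subunits of the gamma-secretase that releases the intracellular domain, and O-fut1 (-0.43) and rumi (-0.34), which add fucose and glucose to the receptor. nct, another subunit of gamma-secretase, rose (log2 fold change 0.49, SE 0.08, edgeR adjusted p = 6.16e-04), as did the furin Fur1 (0.25), while the metalloprotease gene kuz had 0.30 and did not pass. Without control replicate 2 or 3 or CncC overexpression replicate 3, 1 gene of this list was higher. With the length trend removed, nct was higher and pen-2, O-fut1 and rumi were lower. Psn was not analysed here and Tace had at most 8 counts in any library.

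Of 6 genes for the ubiquitination and endocytosis of ligands, only mib1 was called (higher, as were 30.9% of all genes tested), and the median log2 fold change was 0.11. mib1 encodes the ubiquitin ligase Mind bomb 1, which acts on Delta and Serrate. It had 2264, 2004 and 2015 counts in control and 3298, 3962 and 3603 in CncC overexpression, a log2 fold change of 0.73 (SE 0.09, edgeR adjusted p = 1.08e-04), and 0.54 with the length trend removed. The other 5 did not pass, with log2 fold changes of 0.22 for the ligase gene neur, 0.13 for the dynamin gene shi, 0.09 for the auxilin gene aux, -0.07 for the clathrin gene Chc and -0.11 for the epsin gene lqf. Without CncC overexpression replicate 1, 2 genes of this list were higher, and with the length trend removed lqf (-0.43) and Chc (-0.38) were lower.

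Among 8 genes of receptor trafficking and degradation, 5 rose and 1 fell, beside 30.9% and 31.6% of all genes tested, with a median log2 fold change of 0.29. Nedd4, which encodes a ubiquitin ligase that lowers Notch activity, rose most of these, from 1380, 1351 and 1447 counts to 2920, 3728 and 3100, a log2 fold change of 1.16 (SE 0.10, edgeR adjusted p = 1.82e-05). lgd, a regulator of endosomal sorting, had 0.75, Nak 0.43, the ligase gene Su(dx) 0.36 and the inhibitor numb 0.23. The increases of Nedd4 (0.89) and lgd (0.66) remained with the length trend removed, whereas those of Nak, Su(dx) and numb did not pass. spdo, whose product acts with Numb in asymmetric division, fell from 36, 16 and 26 counts to 10, 10 and 9 (log2 fold change -1.47, edgeR adjusted p = 0.00563). The decrease of spdo was not tested where at least 10 counts were asked of every library. The ligase gene dx (-0.06) and the arrestin gene krz (0.13) did not pass, but dx was lower once the length trend was removed (-0.22). Of the 5 nuclear cofactors, whose median log2 fold change was -0.11, only nej, the gene of the acetyltransferase CBP, was called, at a log2 fold change of 0.51 (edgeR adjusted p = 0.0192), and its call was lost without control replicate 2 or 3 or CncC overexpression replicate 2 or 3 and with the length trend removed. The other 4 did not pass, with log2 fold changes of 0.12 for the corepressor gene gro, -0.19 for CtBP, -0.11 for ebi and -0.11 for Bx42. CtBP (-0.51) and ebi (-0.24) were lower with the trend removed, and 2 genes of this list were lower with upper-quartile scaling.

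**Figure D4:**
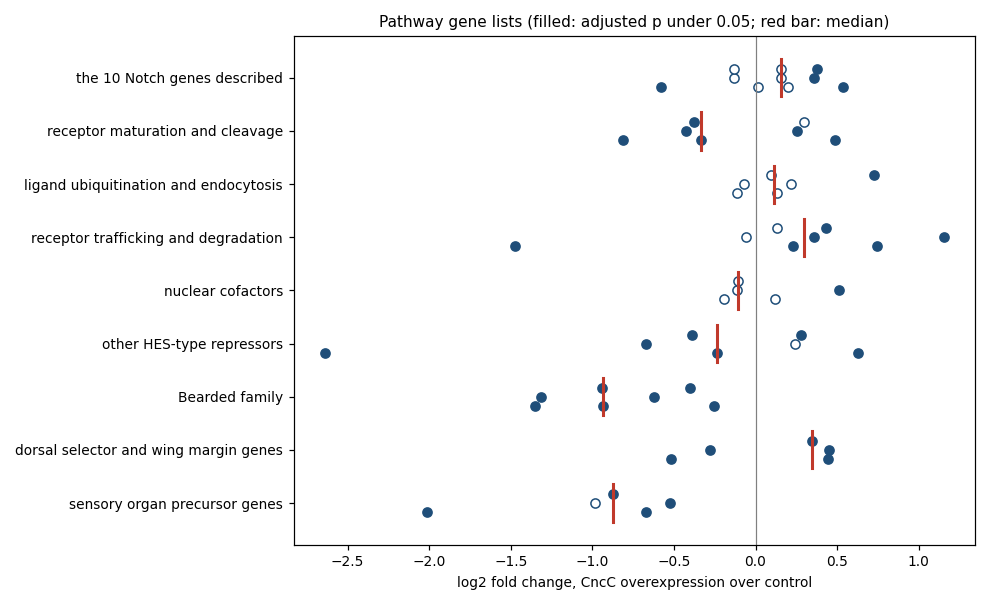
Log2 fold change of CncC overexpression over control on the x axis for each tested gene of the 10 genes described and of 8 lists (1 point per gene, filled where the adjusted p was under 0.05; vertical red bars are medians). The Bearded family genes all lie below 0, with a median of -0.94, and the median of the sensory organ precursor genes is -0.87.

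The genes of the Bearded family were lower in CncC overexpression. They encode small proteins that bind and restrain Neuralized, and several are switched on by Notch. Of 10 listed genes, 7 were tested and all 7 fell, with a median log2 fold change of -0.94 (31.6% of all genes tested were lower, with a median of -0.01). Tom had 4775, 3453 and 4150 counts in control and 1907, 1581 and 1687 in CncC overexpression, a log2 fold change of -1.32 (SE 0.12, edgeR adjusted p = 2.09e-05). E(spl)m6-BFM fell by 1.35 on the log2 scale, E(spl)m2-BFM by 0.94 and E(spl)malpha-BFM by 0.94. In each of the 7 genes every overexpressing library lay below every control library, as for 34.9% of all genes tested. These genes are short, with exons of 532 to 1193 bases, and the length trend ran with their decrease. With it removed, 4 of the 7 were lower, beside 32.7% of all genes, namely Tom (-1.06), E(spl)m6-BFM (-1.18), E(spl)m2-BFM (-0.68) and E(spl)malpha-BFM (-0.55). Brd (-0.15), Ocho (-0.22) and E(spl)m4-BFM (0.095) did not pass there, and the direction of E(spl)m4-BFM had turned. Between 5 and 7 were lower when a library was left out.

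The other HES-type repressors were divided. Of 8 listed, 7 were tested, of which 4 fell and 2 rose, beside 31.6% and 30.9% of all genes tested, with a median log2 fold change of -0.24. E(spl)m5-HLH had 41, 47 and 51 counts in control and 5, 7 and 11 in CncC overexpression, a log2 fold change of -2.64 (SE 0.33, edgeR adjusted p = 1.12e-04). E(spl)mdelta-HLH had -0.67, E(spl)mgamma-HLH -0.39 and E(spl)m3-HLH -0.24. Where at least 10 counts were asked of every library, E(spl)m5-HLH was not tested and 3 genes of this list were lower. The genes that rose were dpn (log2 fold change 0.63, edgeR adjusted p = 6.61e-05), which Notch activates at the wing margin, and h (0.28), another repressor of this class. E(spl)m8-HLH, a neighbour of E(spl)m7-HLH in the complex, had 0.24 and did not pass. Leaving out control replicate 2 or 3 or CncC overexpression replicate 2 or 3 left 2 genes lower, as did the Wald test of DESeq2, and leaving out control replicate 2 or 3 left 1 higher. Once the length trend was removed, E(spl)m5-HLH (-2.33) and E(spl)mdelta-HLH (-0.43) were lower and dpn (0.66), h (0.28) and E(spl)m8-HLH (0.59) were higher.

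**Figure D5:**
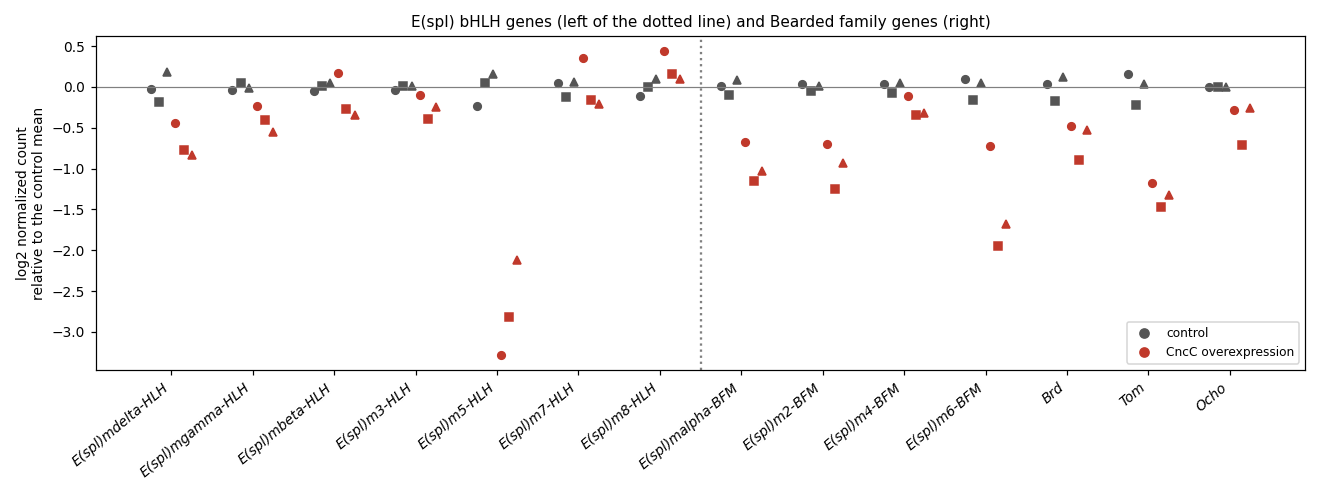
Normalized counts of 7 E(spl) helix-loop-helix genes and 7 Bearded family genes in each library, as log2 relative to the control mean on the y axis (grey, control; red, CncC overexpression; circles, squares and triangles, replicates 1 to 3). E(spl)mbeta-HLH and E(spl)m7-HLH overlap between the groups, while all 7 Bearded family genes are lower in every overexpressing library, as are 34.9% of all genes tested.

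The genes of the dorsal selector and margin list that were tested, 5 of 7, were all called, 3 higher and 2 lower, beside 30.9% and 31.6% of all genes tested, with a median log2 fold change of 0.35. vg, the wing selector gene with a Notch-dependent enhancer at the margin, had a log2 fold change of 0.44 (SE 0.09, edgeR adjusted p = 0.00249), its partner sd had 0.45 and Bx 0.35. bs, a gene of intervein cells, had -0.52 (edgeR adjusted p = 0.00339) and Chi had -0.28. vg, bs and Chi held with the length trend removed and sd and Bx did not. Leaving out control replicate 2 or 3 or CncC overexpression replicate 3 left 1 gene higher, and leaving out control replicate 2 left 1 lower. ap and wg were not analysed here.

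Sensory organ precursors are cells whose choice Notch restricts. Of 6 listed genes, 5 were tested and 4 fell, beside 31.6% of all genes tested, with a median log2 fold change of -0.87. sens had 160, 89 and 91 counts in control and 33, 29 and 25 in CncC overexpression, a log2 fold change of -2.02 (SE 0.26, edgeR adjusted p = 1.33e-04). sc fell by 0.87 on the log2 scale, phyl by 0.67 and ac by 0.52, while ase, with at most 16 counts in a library, did not pass (log2 fold change -0.98, edgeR adjusted p = 0.0507). After removal of the length trend, sens, sc and phyl were lower and ac did not pass (edgeR adjusted p = 0.0562). The summed level of the 6 genes was 72.9 to 84.4 CPM, counts scaled to library size, in control and 42.4 to 47.6 in overexpression, beside 665 to 770.0 and 324 to 436 for the Bearded family, and the part of one in the other was not tested.

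Markers of the wing disc were present in every library, with a summed level of 8 matched genes between 1274 and 1509 CPM in control and between 1464 and 1787 in CncC overexpression. Of these 8, 4 were called higher and 3 lower, beside 30.9% and 31.6% of all genes tested, from 0.72 for rn to -0.54 for pnr on the log2 scale. With the length trend removed, 2 were higher and 4 lower, beside 29.3% and 32.7% of all genes. Muscle precursor markers, whose cells lie under the notum and carry Notch and Cut, summed to between 231 and 250 CPM in control and between 191 and 221 in overexpression, and 3 of 5 were lower, beside 31.6% of all genes tested. The summed level of 5 haemocyte markers was 11.0 to 16.01 CPM in control and 14.4 to 19.6 in overexpression. This sum mostly follows Pxn, whose mean normalized count was 173 in control and 250 in overexpression. Hml had a log2 fold change of -0.69 and did not pass (edgeR adjusted p = 0.174). srp and He, with counts too low to be tested, were lower in every overexpressing library. NimC1, also too low to be tested, had a higher mean in overexpression, with overlap between the groups. The summed level of 4 neuron markers was 24.4 to 29.8 CPM in control and 28.6 to 37.8 in overexpression. The 5 fat body markers varied widely within both groups, from 8.94 to 437 and from 9.46 to 78.2 CPM. Genes listed as markers of other discs summed to 147 to 155 CPM in control and 116 to 125 in overexpression. Of these 6 genes, 3 were lower, beside 31.6% of all genes tested (5 with the length trend removed, beside 32.7%). The mean normalized count of eya fell from 755 to 382, while that of Antp, the highest of them, was 1085 and 1069. The 3 matched tracheal markers summed to 947 to 1122 CPM in control and 1304 to 1585 in overexpression. In control the mean normalized count was 11076 for verm and 4925 for serp, against 1073 for trh, so the sum mostly follows verm and serp. verm and serp were higher (log2 fold changes 0.57 and 0.34), also with the length trend removed, beside 30.9% of all genes tested. trh had 0.23 (edgeR adjusted p = 0.0648) and did not pass, and it had -0.05 with the trend removed. Salivary gland markers reached 13.5 CPM in overexpression replicate 1 and at most 1.72 in any other library. No marker of these lists was at 0 in all libraries, and fkh of the salivary gland had at most 3 counts. The part of these cells in the results was not tested.

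Genes that respond to the moulting hormone ecdysone were also compared, and their median log2 fold change was -0.16, beside -0.01 for all genes tested. Of 9 such genes tested, 4 fell and 1 rose, beside 31.6% and 30.9% of all genes tested, and 4 did not pass (usp, Eip74EF, E23 and Hr39, between -0.16 and 0.43 on the log2 scale). Hr4 had 831, 454 and 456 counts in control and 36, 31 and 37 in CncC overexpression, Blimp-1 had 665, 348 and 486 counts against 1, 8 and 3, and Hr3 had 561, 403 and 177 against 6, 2 and 0. Eip75B had a log2 fold change of -1.06 and EcR, the receptor gene, 1.42. After removal of the length trend, 6 of the 9 were lower, now with Eip74EF (-0.56, edgeR adjusted p = 0.00234) and Hr39 (-0.40, edgeR adjusted p = 0.0133), and EcR was higher. The part of stage or hormone in the values of the Notch pathway was not tested.

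Over the 6 libraries, the tested genes with a pattern most like N, among 7094 genes whose mean normalized count reached 100, were IntS6 (Pearson r 0.998), wls (0.997) and Fbxl7 (0.997). Those most like E(spl)m7-HLH were puc (0.990), CG13053 (0.979) and CG1674 (0.964). puc had 660.0, 590.0 and 627 counts in control and 745, 645 and 604 in CncC overexpression, and like E(spl)m7-HLH it was highest in overexpression replicate 1. These correlations describe 6 points that share 2 genotypes, library scaling and the slope with length.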

How the data were processed

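The authors deposited raw counts of reads per gene, 1 table per library, made from TruSeq libraries of 500 ng total RNA. The submitters' processing notes name FastQC 0.11.5, Bowtie and the build BDGP6. How reads were counted, whether by strand, and on which annotation release is not given in the sources used here. A table of the whole series repeats the same values and was not used. Coordinates and exon lengths are from Ensembl release 115 (BDGP6.54), by identifier, and 13661 identifiers had a symbol. Psn, wg, ap, br, btl, BobB and BobC were not matched by symbol and were not analysed here. Reads of overlapping genes and of paralogs could not be separated.

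Counts were tested in edgeR 4.0.16 (R 4.3.3) with filterByExpr, TMM scaling and the quasi-likelihood test, genotype as the only term, and Benjamini-Hochberg adjustment over 8361 genes. Normalized counts are counts divided by the TMM-scaled library size and multiplied by its mean. The biological coefficient of variation was 0.115. Standard errors were taken from the fold change and its F statistic. The length trend was removed as an offset, by loess (span 0.5) of each library's log2 deviations on log2 exon length, over 8159 genes. Alternatives were other scalings, limma-voom (limma 3.58.1), DESeq2 1.42.0 with its Wald test, other filters, thresholds and fold limits, a replicate block and leaving out each library. The fits were also run on simulated data, with the same variation for all genes and the same length slope in every overexpressing library. The slopes of the libraries here differed within each group, so that run does not measure the error of the fits in these data. Same-numbered libraries were not known to be paired.

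The members and lists were chosen with earlier results of these data known. Genes named are all members, cnc, genes overlapping a member, the 3 genes most like N and the 3 most like E(spl)m7-HLH, and from each pathway list up to 4 called genes with the largest change and a mean of at least 50 normalized counts, with all genes where a count is 5 or fewer. The genes lower or higher only once the length trend was removed (lqf, Chc, CtBP, ebi, dx and E(spl)m8-HLH) were singled out after their values were seen.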

Additional observations from a re-analysis of the deposited data

How the results depend on the processing

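The number of members called depended on the length trend, the thresholds and single libraries. With the length trend removed, 0 members were higher and 2 lower, against 3 and 1, and with a replicate block in addition 1 was higher (E(spl)m7-HLH, log2 fold change 0.26, adjusted p = 0.0216 from edgeR's test) and 2 lower. At an adjusted p under 0.01, 1 member was higher. With fold limits of 1.4 and 0.6, 1 was higher and 0 lower, as mam, at 0.67 times the control level, was no longer called. Over all genes, 1711 were higher and 1033 lower under these limits, against 2585 and 2644. Across the fits without a single library, between 2 and 4 members were higher and between 1 and 2 lower, the latter without CncC overexpression replicate 1, and the median log2 fold change of the members lay between 0.08 and 0.23. Fewer genes were called higher under fold limits by construction, and the cause of the other changes was not tested.

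Directions changed only in members that did not pass as reported. The log2 fold change of E(spl)m7-HLH was -0.050 with upper-quartile scaling, -0.0029 with limma-voom, -0.0012 with the replicate block and between -0.18 and 0.14 without each library in turn. With the length trend removed, without and with the replicate block, the log2 fold change was -0.074 and -0.088 for Dl, -0.34 and -0.34 for ct, and 0.12 and 0.12 for E(spl)mbeta-HLH. Upper-quartile scaling moved the median of all genes to -0.09, and the share of higher genes among those called was 43.3% with it, 54.1% with total counts only and 49.4% as reported. Leaving out a library kept the direction of the 4 ratios, with mam to Su(H) between -0.80 and -0.65. Same-numbered libraries had correlations of their deviations of -0.21, 0.09 and 0.13 across genes, so that pairing was not established. With the replicate block alone, the log2 fold change of mam was -0.58, and among the members only the call of Ser was lost. With 3 libraries per group and a spread of up to 24.5% of the mean (Dl), changes below about the size of the intervals given could not be detected.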
